A study of Rattus norvegicus with 9 samples.

Results

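Vgf, Tac1 and Npy are genes for neuropeptide precursors, and the accessible chromatin around each of them in rat dorsal root ganglia (DRGs) was described here. Members were the accessible regions lying wholly inside chr12:22600000-22760000 for Vgf, chr4:33560000-33730000 for Tac1 and chr4:79480000-79650000 for Npy, in the rat genome build rn6. Position within these windows was the only rule, though the loci were chosen with earlier results of these data known. By this rule 33 of 186719 accessible regions qualified. The Vgf window of 160 kb held 18 regions, and the windows of Tac1 and Npy, 170 kb each, held 12 and 3.

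Chronic constriction injury (CCI) is a model of neuropathic pain in which loose ligatures are tied around the sciatic nerve. ATAC-seq, in which a transposase inserts adaptors into open chromatin, was performed on the lumbar (L4 to L6) DRGs of the injured side in 2 CCI rats, taken 14 days after surgery, and on the same ganglia of 3 naive rats without surgery. H3K4me1, a histone mark of enhancers and of promoter flanks, was mapped by ChIP-seq in 4 samples, 2 of CCI rats and 2 of naive rats, each pooling 3 rats. The question for these loci was whether their accessibility differed between CCI and naive rats by more than that of the chromatin around them. All rats were adult female Sprague-Dawley rats, described as 8 to 10 weeks old in one place of the study's text and as 12 to 16 weeks old in another. Surgery was done under isoflurane anaesthesia, and naive rats had no procedure before death. Each ATAC-seq library came from 1 rat. The study's text gives these replicate numbers in one place and different ones in others, and the sample labels were followed here. Whole ganglia were homogenized, so neurons, glia and other cells were mixed. A change in the share of cells of a type and a change in accessibility within those cells cannot be told apart.

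Neuropeptides are made as larger precursors, sorted into dense-core vesicles, cleaved by prohormone convertases and released to act on G protein-coupled receptors. Tac1 encodes substance P and neurokinin A, which mark peptidergic nociceptors, whereas Npy encodes neuropeptide Y, which is scarce in intact sensory neurons and well known to appear in them after nerve injury. Vgf encodes a granin-like precursor of several peptides that is induced by neurotrophins and by nerve injury.

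Accessible regions took 7692994 and 9304710 reads from the libraries of CCI rats 1 and 2, and 13248437, 4633807 and 6382154 from those of naive rats 1, 2 and 3. Values are normalized reads, meaning that the read number of each region was scaled by the size of its library. The median region had 9 reads in naive rat 2 and 31 in naive rat 1, so weak regions were measured less precisely in the smaller library. A region counted as called when limma gave it a two-sided unadjusted p below 0.01 in a fit over all regions. By that rule 1 of the 33 members was called, or 3.03%, against 3.59% of all regions.

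The Vgf window was the most open of the windows. Its regions stood at 11.2 per 100 kb, against 7.85 per 100 kb in the 1 Mb on each side, which held 157 regions. Lengths ran from 150 to 1218 bp around a median of 286 bp for the 18 regions, and they fell into separate classes of 991 to 1218 bp and of 150 to 481 bp. The 6 long regions had means of 58.4 to 217 normalized reads over the 5 libraries, and the 12 short ones had means of 5.11 to 15.8. A mean of at least 50 normalized reads was reached by 33.3% of the Vgf regions, 19.7% of the flanking regions and 9.37% of all regions. Per kb of length, the median level was 62.9 normalized reads in the window, 48.9 in its flanks and 40.3 over all regions.

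H3K4me1 overlapped 10 of the 18 Vgf regions, or 55.6%, against 78 of the 157 flanking regions (49.7%) and 31.3% of all regions. All 6 long regions were among them, and 4 of the 12 short ones. The window held 27 H3K4me1 regions, which covered 16.2% of its bases, while those of the flanks covered 12.6%. No member lay in 17 of the 27. The longest, chr12:22752353-22755256, spanned 2904 bp and contained the whole of the accessible region chr12:22753786-22754815. The 8 members without the mark lay 182 to 4506 bp from the nearest H3K4me1 region, with a median of 2877 bp, against a median of 4795 bp for all accessible regions without it.

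Across the Vgf window, accessibility tended to be higher after CCI, and by about as much as in the chromatin on either side. Of the 18 regions 1 was called, or 5.56%, against 3.82% of the flanking regions and 3.59% of all regions. The log2 fold change, CCI over naive, was positive in 16 of the 18 regions (88.9%), 138 of the 157 flanking regions (87.9%) and 58.1% of all regions. Its median was 0.55 over the 18, against 0.50 over the 157 flanking regions and 0.13 over all regions. The left flank had a median of 0.49 and the right flank 0.50. The 2 CCI values exceeded all 3 naive values in 11 of the 18 Vgf regions (61.1%), in 62 of the 157 flanking regions (39.5%) and in 18.2% of all regions. They were below all 3 in 0 of the Vgf regions and 1 flanking region, against 11.0% of all regions. Among the Vgf regions, the median was 0.48 for the 10 with H3K4me1 and 0.85 for the 8 without, and all of the latter were short and weakly covered.

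Summed over the window, CCI rats 1 and 2 had 1168 and 902 normalized reads, and naive rats 1, 2 and 3 had 640.4, 868 and 760.3. CCI rat 1 was the highest and naive rat 1 the lowest, and naive rat 2 came close to CCI rat 2. The same order of CCI rat 1, CCI rat 2, naive rat 2, naive rat 3 and naive rat 1 held in the flanks, with 7650.0, 5979, 5631, 4756 and 4532 normalized reads. As a percentage of the flank reads, the window therefore held 15.3% and 15.1% in the CCI rats and 14.1%, 15.4% and 16% in the naive rats. The CCI values lay within the naive range, with means of 15.2% ± 0.119 (SD, n = 2) and 15.2% ± 0.950 (SD, n = 3). On the log2 scale the share differed by 0.00 between the groups, while the summed reads differed by 0.45 in the window and 0.45 in the flanks. No p is given for these shares, since the smallest that an exact permutation of 2 against 3 rats allows is 0.1.

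One Vgf region was called, chr12:22677881-22678871, a region of 991 bp that the study's lists pair with Vgf. Those lists came from these same libraries, so the call is not independent of them. Normalized reads were 100.8 and 65.5 for CCI rats 1 and 2, and 25.8, 54 and 46 for naive rats 1, 2 and 3. Both CCI rats were above all naive rats, with CCI rat 1 well above the rest, naive rat 1 well below, and a narrow gap between CCI rat 2 and naive rat 2. The group means were 83.1 ± 25 (SD, n = 2) and 41.9 ± 14.5 (SD, n = 3), and the log2 fold change was 1.0 with an SE of 0.27. In limma the Benjamini-Hochberg adjusted p over all regions was 0.0571, and over the alternatives it ran from 0.00362 with quantile normalization to 0.764 without CCI rat 1. In edgeR it was 0.0466 with the deposited size factors and 0.0718 with TMM factors, and in DESeq2 0.184. Higher calls made up 2.13% of all regions, and 6 of the 157 flanking regions (3.82%) were called, all of them higher. With the deposited scaling, a trend and all regions and libraries, limma gave 0 Vgf and 0 flanking regions an adjusted p below 0.05, a threshold that 0.344% of all regions passed. At an unadjusted p below 0.05, limma took 4 of the 18 Vgf regions (22.2%), 36 of the 157 flanking regions (22.9%) and 11.1% of all regions.

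H3K4me1 covered 503 of the 991 bases of this region. Its log2 fold change exceeded the median of its flanks by 0.50, and 20 of the 157 flanking regions had a larger one. The call was lost without CCI rat 1 (log2 fold change 0.69) and without naive rat 1 (0.69). It was also lost with each library centred on the regions within 1 Mb, where the log2 fold change was 0.52 and limma called 0 of the 18 Vgf regions, and without a mean-variance trend in the fit.

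The most accessible Vgf region, chr12:22726465-22727620, lay wholly within H3K4me1 and had 305.1 and 221.1 normalized reads for CCI rats 1 and 2, and 147.0, 256 and 153.8 for naive rats 1, 2 and 3. Naive rat 2 exceeded CCI rat 2, so the groups overlapped. Its log2 fold change of 0.53 (SE 0.26, limma's Benjamini-Hochberg adjusted p = 0.422) was close to the flank median. It was called only without CCI rat 2 (0.76), without naive rat 2 (0.78) and with quantile normalization (0.44).

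Next in level was chr12:22753786-22754815, with 198.9 and 170.8 normalized reads in the CCI rats against 128.1, 146 and 148.5 in the naive rats. The groups did not overlap, and its log2 fold change of 0.39 (SE 0.25) differed from the flank median by less than its SE. The region chr12:22640225-22641234 had 160.2 and 96.6 normalized reads in the CCI rats against 114.0, 132 and 120.9 in the naive rats. Here the CCI rats were the highest and the lowest of all, and the log2 fold change was 0.03, or −0.45 after local centring. The other long regions, chr12:22600043-22601260 and chr12:22664684-22665810, had log2 fold changes of 0.25 and 0.42. All 6 long regions thus had positive log2 fold changes, as had 87.9% of the flanking regions and 58.1% of all regions. The median over the 6 was 0.41, but with local centring 4 of their log2 fold changes turned negative. That of chr12:22640225-22641234 was also negative with median-of-ratios rescaling (−0.08), quantile normalization (−0.04) and TMM factors in edgeR (−0.06). It was −0.33 without CCI rat 1, −0.02 without naive rat 1 and 0.39 without CCI rat 2.

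Among the short Vgf regions, chr12:22685166-22685323 had the largest log2 fold change in the window of those with a mean of at least 10 normalized reads. It lay inside H3K4me1 and had 17.4 and 16 normalized reads in the CCI rats against 5.88, 7 and 7.89 in the naive rats. The groups were well apart, at 16.7 ± 0.948 (SD, n = 2) and 6.92 ± 1.01 (SD, n = 3). Its log2 fold change was 1.17 with an SE of 0.50, and it was not called (limma's Benjamini-Hochberg adjusted p = 0.340). The lowest log2 fold change by the same rule, −0.18, was that of chr12:22608880-22609127, with 8.68 and 16.9 normalized reads in the CCI rats against 10.8, 18 and 13.8 in the naive rats. These groups overlapped.

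A further short region, singled out after its values were seen, was chr12:22656998-22657478. It lacked H3K4me1, with the nearest such region 219 bp away, and had 20.7 and 23.4 normalized reads in the CCI rats against 8.82, 15 and 7.23 in the naive rats. Both CCI rats were above all naive rats. Its log2 fold change was 1.08 (SE 0.42, limma's Benjamini-Hochberg adjusted p = 0.282), and it fell just short of a call. It was called in edgeR with the deposited size factors, and in limma with a pseudocount of 10, without the lowest 25% of regions and without naive rat 2 (1.35). No other alternative that kept the p threshold of 0.01 called it, while at p below 0.05 it counted as called (limma, unadjusted p = 0.0104). Over the 12 short regions the log2 fold changes ran from −0.71 to 1.44, with a median of 0.74, and 8 had both CCI rats above all naive rats, against 39.5% of the flanking regions and 18.2% of all regions. Their SEs were 0.40 to 0.87, against 0.25 to 0.27 in the long regions, and they held 11.6% to 17.8% of the window's reads in each library.

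The accessible regions of the Tac1 window had low to moderate levels. Its 12 regions stood at 7.06 per 100 kb, near the 6.55 per 100 kb of its flanks. Their means ran from 3.37 to 12.9 normalized reads. A mean of 50 was reached by 0 of 12, against 6 of the 131 flanking regions (4.58%) and 9.37% of all regions. A mean of at least 10 was reached by 4 of the 12 (33.3%), 42.7% of the flanking regions and 48.0% of all regions. The regions were 150 to 330 bp long, and 5 of them had the shortest length in the table, 150 bp. Per kb, the median level was 35.9 normalized reads, against 37.1 in the flanks.

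H3K4me1 overlapped 4 of the 12 Tac1 regions (33.3%), against 28 of the 131 flanking regions (21.4%). The window held 10 H3K4me1 regions, covering 3.67% of its bases against 3.47% of the flanks, and 6 of them contained no member. The longest of them, chr4:33638359-33640887, spanned 2529 bp. No accessible region overlapped it, and the nearest, chr4:33638065-33638214, was 145 bp away. That region, singled out for this position, had 0.67 and 9.61 normalized reads in the CCI rats against 4.90, 1 and 0.66 in the naive rats. Only CCI rat 2 and naive rat 1 had more than 1 read there, and the groups overlapped.

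With the deposited scaling, a mean-variance trend and all libraries, limma called 0 of the 12 Tac1 regions, against 3.59% of all regions. At an unadjusted p below 0.05 it took 0 of the 12, against 13.0% of the flanking regions and 11.1% of all regions. edgeR and DESeq2 called 0 as well. With local centring (log2 fold change 1.37) and without a trend (1.14), chr4:33583420-33583615 passed an unadjusted p of 0.05, but not 0.01. With all libraries kept, the lower region chr4:33598527-33598676 did so under median-of-ratios rescaling (−1.66) and quantile normalization (−1.67), in edgeR with TMM factors (−2.09) and in DESeq2 (−2.03). Without a trend it also passed 0.01 (−1.59). The flanks held 4 called regions (3.05%), all lower after CCI. The log2 fold change was positive in 4 (33.3%) and negative in 8 of the 12, while 42.7% of the flanking regions and 58.1% of all regions were positive. Its median was −0.26 over the 12, against −0.13 over the flanks, where the left side had 0.05 and the right side −0.16. Both CCI rats were above all naive rats in 1 region and below them in 2, against 13 and 29 of the 131 flanking regions and 18.2% and 11.0% of all regions. With local centring the median of the 12 was −0.05.

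The Tac1 region with the highest mean, chr4:33647907-33648189, had 21.4 and 7.33 normalized reads for CCI rats 1 and 2, and 7.84, 12 and 15.8 for naive rats 1, 2 and 3. The CCI rats were the highest and the lowest of the 5, and the log2 fold change was 0.13 (SE 0.45). Without CCI rat 1 it was −0.58, and without CCI rat 2 it was 0.85. Next came chr4:33655812-33656139, with 10.7 and 10.5 normalized reads in the CCI rats against 17.0, 11 and 12.5 in the naive rats. Its CCI values lay just below those of all naive rats, and its log2 fold change was −0.30 (SE 0.45). The region chr4:33615916-33616186, with H3K4me1, had 8.68 and 8.70 normalized reads in the CCI rats against 4.90, 21 and 9.86 in the naive rats. Naive rat 2 stood apart there, the CCI rats lay within the naive range, and the log2 fold change was −0.21. Without naive rat 2 it was 0.28, and without naive rat 1 it was −0.67.

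The largest differences in the Tac1 window came from weaker regions, named after their values were seen. One, chr4:33583420-33583615, had 9.35 and 12.4 normalized reads in the CCI rats against 7.84, 3 and 3.29 in the naive rats. Another, chr4:33598527-33598676, had 1.34 and 2.29 normalized reads in the CCI rats against 6.21, 6 and 10.5 in the naive rats. The groups were apart in both, upward in the first and downward in the second, with log2 fold changes of 1.14 (SE 0.65) and −1.59 (SE 0.84). Without a mean-variance trend, limma called 1 Tac1 region, a lower one.

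Summed over the window, Tac1 held 84.1 and 87.0 normalized reads in the CCI rats and 102.9, 87.0 and 99.9 in the naive rats. These were 3.15% and 3.80% of the flank reads in the CCI rats and 3.51%, 3.01% and 3.64% in the naive rats. The groups overlapped, at 3.47% ± 0.459 (SD, n = 2) and 3.39% ± 0.331 (SD, n = 3), and the log2 difference was 0.03.

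Npy lay in the most closed of the windows. Its 3 regions stood at 1.76 per 100 kb, against 6.20 per 100 kb in its flanks, which held 124 regions. Their means were 4.20 to 7.68 normalized reads. H3K4me1 overlapped 0 of the 3, against 42 of the 124 flanking regions (33.9%), and the nearest H3K4me1 regions were 1059 to 8095 bp away. The mark itself was present, since 16 H3K4me1 regions lay in the window and covered 6.61% of its bases, against 9.78% of the flanks. The longest, chr4:79497954-79500484, spanned 2531 bp. None of the 16 overlapped an accessible region. Only 31.3% of all accessible regions overlapped the mark, and the 3 regions here were too few and weak to describe the window by.

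The leftmost Npy region, chr4:79491495-79491761, had 8.68 and 5.04 normalized reads for CCI rats 1 and 2, and 6.53, 5 and 13.1 for naive rats 1, 2 and 3. The region chr4:79613160-79613340 had 5.34 and 9.16 normalized reads in the CCI rats against 0.33, 1 and 5.26 in the naive rats. The last, chr4:79617259-79617408, had 2.67 and 2.75 normalized reads in the CCI rats against 2.94, 12 and 0.66 in the naive rats. In the first and the last of these the CCI rats lay within the naive range. In chr4:79613160-79613340 both CCI rats exceeded all naive rats, with CCI rat 1 barely above naive rat 3, on 8 and 20 reads against 1, 1 and 8. The log2 fold changes were −0.17, 1.65 (SE 1.09, limma's Benjamini-Hochberg adjusted p = 0.570) and −0.25.

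With the deposited scaling, a mean-variance trend and all libraries, limma called 0 of the 3 Npy regions, against 3.59% of all regions. At an unadjusted p below 0.05 it took 0 of the 3, against 4.84% of the flanking regions and 11.1% of all regions. edgeR and DESeq2 called 0 as well. Without a trend, chr4:79613160-79613340 passed an unadjusted p of 0.05, but not 0.01. In the flanks, 1 of the 124 regions (0.806%) was called, a higher one. The median log2 fold change was −0.17 over the 3 regions and 0.19 over the flanks, and over the 3 it turned to 0.17 without CCI rat 2, 0.54 without naive rat 2 and 0.19 without naive rat 3. As a percentage of the flank reads, the window held 0.544% and 0.672% in the CCI rats and 0.383%, 0.643% and 0.732% in the naive rats. The groups overlapped, at 0.608% ± 0.0907 (SD, n = 2) and 0.586% ± 0.181 (SD, n = 3). With 16.7 to 19.1 normalized reads in every library but naive rat 1, which had 9.80, the Npy window rested on few reads.

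The balance of all calls moved with the scaling of the libraries and with CCI rat 1. Of the 6703 called regions 59.2% were higher after CCI, against 33.7% of 6972 with median-of-ratios rescaling, 42.3% of 10298 with quantile normalization, and 24.4% of 4931 with local centring. In edgeR it was 64.9% of 7256 with the deposited size factors and 39.8% of 7274 with TMM factors. Without CCI rat 1, limma called 3352 regions, of which 16.2% were higher, and the medians were 0.38 for the Vgf regions and 0.34 for their flanks. The median log2 fold change of all regions fell to 0.03 with median-of-ratios rescaling and to 0.01 with quantile normalization. Under those respective scalings the median of the 18 Vgf regions was 0.44 and 0.46, with 15 of 18 positive in each. With local centring it was 0.07, with 11 of 18 positive. The Tac1 median was −0.35 with median-of-ratios rescaling and −0.37 with quantile normalization.

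The regions of other genes of neuropeptide signalling could be found for 4 of 44 listed genes, Vgf among them, which the study had listed from these same libraries, so their directions are not independent evidence. The prohormone convertase gene Pcsk1, whose product cleaves such precursors, was paired with chr2:91496002-91497204. This region had 30.7 and 43.5 normalized reads in the CCI rats against 89.5, 96 and 82.8 in the naive rats. The groups were far apart, and the log2 fold change was −1.27 (SE 0.26, limma's Benjamini-Hochberg adjusted p = 0.00395), or −1.15 with local centring. Without a mean-variance trend it was not called.

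The region of Chga, the gene for the granin chromogranin A, chr6:126443228-126443678, had 20 and 28.8 normalized reads in the CCI rats against 10.5, 11 and 7.89 in the naive rats. That of Vipr1, a receptor gene for vasoactive intestinal peptide, chr8:130276719-130277298, had 28.7 and 33.4 normalized reads against 13.4, 9 and 16.4. Both CCI rats were above all naive rats in each. The log2 fold changes were 1.23 (SE 0.42) for Chga and 1.23 (SE 0.37) for Vipr1, both called, with limma's Benjamini-Hochberg adjusted p of 0.183 and 0.109. Both calls were lost without CCI rat 2, at 0.98 and 1.13, and also without a mean-variance trend and in DESeq2. With local centring, Chga had 1.12 and was called, and Vipr1 had 0.73 and was not.

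The promoter sequences of the 3 genes were searched for a few short motifs, as a description only. A link between these motifs and the accessibility of the windows was not tested. RefSeq sequences of the build GRCr8 were used, from 250 bases before to 50 bases after 1 annotated start per gene, and all 3 genes were matched. They were not placed among the accessible regions, which have rn6 positions. The cyclic AMP response element, TGACGTCA, is the same on both strands and was present in 1.83% of 33469 promoters. Vgf had 1 match, beginning 90 bases before its start, and Tac1 and Npy had 0. The half-site TGACG, or CGTCA on the other strand, was in 21.2% of promoters. Vgf had 2 matches, both inside its full element, Tac1 had 1, beginning 206 bases before its start, and Npy had 0. The AP-1 motif TGANTCA, in 7.33% of promoters, had 0 matches in all 3. The E-box CANNTG, in 72.1%, was matched 3 times in Vgf, 2 times in Tac1 and 0 times in Npy. The CCAAT box, in 37.5% and also searched as ATTGG, was matched 2, 2 and 1 times. In the 250 bases before the start of Vgf, chr12:25277021-25277270 on the minus strand, and in the 30 bases around the half-site of Tac1, chr4:36645365-36645394 on the plus strand, capitals mark the full element and the half-site. The annotated genes Vgf and Tac1 extend beyond these starts, so other starts exist.
Vgf: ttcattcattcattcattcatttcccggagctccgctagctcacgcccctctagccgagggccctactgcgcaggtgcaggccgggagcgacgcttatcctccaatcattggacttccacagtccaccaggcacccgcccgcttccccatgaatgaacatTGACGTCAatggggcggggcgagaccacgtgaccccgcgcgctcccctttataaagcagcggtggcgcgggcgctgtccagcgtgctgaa
Tac1: tccctaaaattgCGTCAtttcgaacccaat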

How the data were processed

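ATAC-seq was analysed in 2 CCI and 3 naive libraries, and the members and lists were chosen with earlier results of these data known. The authors aligned the reads to rn6 with Bowtie2, called regions with MACS2 and deposited a signal, each region's reads over the size factor of its library. This factor sets the library's uniquely aligned reads against those of the smallest one, naive rat 2, and no value is below 1 read. The other deposited file is a merged list of 211440 H3K4me1 region positions without values per sample, so the mark could not be compared between groups. Program versions, other than CASAVA 1.8.2 in the submitters' processing notes, were not given in the sources used here. Every column was mapped to a library by its label.

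Multiplied back by the size factors, 100% of values were whole reads, with a tolerance of 0.0051 on the scale of normalized reads. Counting error limits the weak regions. CCI and naive were compared with limma 3.58.1 (R 4.3.3). Values entered as log2(value + 1), the variance was fitted as a trend on the mean, no covariates were used, and calls took a two-sided unadjusted p below 0.01, with Benjamini-Hochberg adjustment over 186719 regions as an alternative. The flank was the regions wholly inside 1 Mb on each side of a window. Overlaps of at least 1 bp were found with bedtools 2.31.1. Python 3.11.15, numpy 2.4.6, pandas 2.3.3 and scipy 1.17.1 were used. The tests were tested on simulated data.

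Regions named were, in each window, the 3 with the highest mean, every called region, the largest log2 fold change in each direction among means of at least 10, and the region the study pairs with Vgf. The nearest regions outside the Vgf window were chr12:22593897-22594412 and chr12:22765032-22765598, those outside the Tac1 window chr4:33559115-33559444 and chr4:33732401-33732550, and those outside the Npy window chr4:79436713-79436867 and chr4:79678232-79678532. A filter that dropped the 25% least covered regions was an alternative, and 15 of 18, 6 of 12 and 1 of 3 members passed it.

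Other alternatives were pseudocounts of 0.1 and 10, median-of-ratios, quantile and local centring (each library centred on the regions within 1 Mb), H3K4me1 regions only, no trend, other thresholds, edgeR 4.0.16 and DESeq2 1.42.0 on recovered reads, each library left out, a replicate block, flanks of 0.5 and 2 Mb, an overlap of 50% and H3K4me1 regions of at least 1 kb. edgeR called 7256 regions. The block paired rats by the replicate number of the labels, though the rats are different animals and same-number libraries correlated at −0.0622 and −0.0564 after removal of group means. Genes were not placed on rn6, so the exon or intron of a region is not given, DRG markers were not checked, and the 44 neuropeptide genes (24 precursors, 16 receptors, 4 enzymes) were found only through the study's lists of differentially accessible regions, which were read in shortened form.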

Additional observations from a re-analysis of the deposited data

How the results depend on the processing

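The number of called regions in the whole table, 6703, was 10298 with quantile normalization, 3066 among H3K4me1 regions only, 3142 without a trend, 2613 in DESeq2, 3944 with the replicate block, 20819 at p below 0.05, 643 at an adjusted p below 0.05, and 3352 to 7668 with 1 library left out. The Vgf count of 1 became 2 with a pseudocount of 10, with quantile normalization, without the lowest 25% of regions and in edgeR with the deposited size factors. It became 0 with local centring, without a trend and at an adjusted p below 0.05, was 4 at p below 0.05, and ran from 0 to 3 with 1 library left out. The Tac1 count was 0 in every alternative but the fit without a trend, where it was 1, and the Npy count was 0 in all of them but the H3K4me1-only fit, which had no Npy region to test. The difference of the window's share of flank reads, 0.03 for Tac1, was −0.14 with H3K4me1 regions only, −0.13 as a median over regions and −0.10 to 0.17 with 1 library left out. For Npy, 0.10 became 0.56 without the most covered region and −0.36 as a median over regions, with −0.18 to 0.28 when 1 library was left out, so single libraries turned the sign at both loci. For Vgf, 0.00 became 0.05 as a median over regions and −0.05 to 0.04 with 1 library left out. The cause was not tested. For Tac1, 4 members with H3K4me1 became 0 with H3K4me1 regions of at least 1 kb and 2 without the lowest 25% of regions. Of the 12 regions named by rule, the call of chr12:22677881-22678871 was lost in 4 of 17 alternatives and that of chr12:22726465-22727620 gained in 3 of 17, while the other 10 stayed uncalled where they were tested. With a CCI rat left out, the lone CCI library was assumed to vary like the naive ones. Naive rat 2 had the fewest reads, the Tac1 and Npy regions held few reads in every library, and 2 rats were set against 3.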
